A study of Mus musculus with 4 samples.

Results

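The genes described here are 10 of the 32285 in the deposited matrices: Ighm, Ighd, Ighg1, Ighg2b, Ighg2c, Ighg3 and Igha, which encode the constant regions of immunoglobulin heavy chains, Igkc and Iglc1, which encode constant regions of the kappa and lambda light chains, and Jchain. They were taken by gene symbol, and all 10 were found. The data are single-cell RNA sequencing libraries of the spleen from 4 female C57BL/6J mice, 1 library per mouse. Of these, 2 mice were wild type (WT) and 2 were D3TA, which carry a global, constitutive and heterozygous Thr283Ala knock-in in Ccnd3, the gene of cyclin D3, made with CRISPR/Cas9. Ages of 12 and 16 months are given for the mice but not mouse by mouse, so effects of age and genotype cannot be told apart.

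Plasma cells secrete one antibody each, built from a heavy and a light chain, and the constant part of the heavy chain sets the isotype. A naive B cell makes IgM and IgD from one long transcript by alternative splicing. Class switching then deletes the DNA between Ighm and a downstream constant gene, so that the same variable region is joined to an IgG, IgE or IgA tail. J chain is a small protein, made by plasma cells, that links IgM into pentamers and IgA into dimers.

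The 4 libraries held 81416981 to 143811696 counts of unique molecular identifiers (UMIs, each standing for 1 captured molecule). After filtering, 22337 cells of WT mouse 1, 7727 of WT mouse 2, 11778 of D3TA mouse 1 and 10554 of D3TA mouse 2 were analysed. WT mouse 1 stood apart, with a median of 1394 UMIs per cell against 7538 to 7946 in the others. Pairs of libraries shared 32 to 127 cell barcodes. Cells were clustered without any immunoglobulin gene or Jchain, and clusters were named from marker genes and carry the ending -like. The plasma-cell-like class was 1 cluster led by Slpi, Prg2, Txndc5 and Mzb1, with 605, 200, 188 and 226 cells in WT mice 1 and 2 and D3TA mice 1 and 2, which is 2.71%, 2.59%, 1.60% and 2.14% of their cells. Levels are given as CPM, a gene's UMIs scaled to the UMI total of the summed cells, and are not scaled by transcript length.

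The 7 heavy chain genes lie on the minus strand of chromosome 12 in GRCm38, the assembly also called mm10, in the order in which switching reaches them: Ighm (113418558-113422730), Ighd (113406604-113416324), Ighg3 (113356224-113361232), Ighg1 (113325240-113330523), Ighg2b (113302965-113307933), Ighg2c (113285325-113288932) and Igha (113254830-113260236). Igkc lies on chromosome 6 (70726435-70726966, plus strand), Iglc1 on chromosome 16 (19061618-19062071, minus strand) and Jchain on chromosome 5 (88519809-88527891, minus strand). These positions and the sequences that follow come from the GENCODE annotation of GRCm38.

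IgM and IgA are the isotypes that J chain joins, and they share a tail at the end of the secreted heavy chain that the IgG subclasses lack. The coding bases from the splice site of the membrane form to the last codon of the secreted form number 59 in Ighm and 59 in Igha, and 5 in each IgG gene. They are shown because the Jchain levels below differ between cells of these isotypes. Capitals mark the 40 bases that are the same in Ighm and Igha at that position, 67.8% of the tail.
Ighm, chr12:113420870-113420928, minus strand: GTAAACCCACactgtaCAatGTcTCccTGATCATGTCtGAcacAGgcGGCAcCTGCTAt
Igha, chr12:113258771-113258829, minus strand: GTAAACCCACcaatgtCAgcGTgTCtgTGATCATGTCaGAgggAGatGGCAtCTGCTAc
Ighg1, chr12:113328979-113328983, minus strand: gtaaa
Ighg2b, chr12:113306392-113306396, minus strand: gtaaa

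The lambda constant genes resemble each other, which bears on how their reads are split. The first 60 coding bases of each are printed to show which ones can be told apart, with capitals at positions where the 3 genes are not all the same.
Iglc1, chr16:19062010-19062069, minus strand: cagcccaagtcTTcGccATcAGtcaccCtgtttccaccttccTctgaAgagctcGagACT
Iglc2, chr16:19198791-19198850, minus strand: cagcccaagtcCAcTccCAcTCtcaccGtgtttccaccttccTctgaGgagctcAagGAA
Iglc3, chr16:19065620-19065679, minus strand: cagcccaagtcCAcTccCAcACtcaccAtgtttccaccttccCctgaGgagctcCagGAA
Over the whole coding sequence, Iglc2 and Iglc3 were 96.2% identical with a shared run of 79 bases, and their counts are uncertain against each other. Iglc1 was 73.4% identical to Iglc2, with no shared run over 19 bases. Among heavy chains, Ighg2b and Ighg2c were the most alike, at 85.6% identity and a longest shared run of 78 bases. A read that lies wholly within such a run cannot be assigned by its sequence to one of the genes. The length and position of the reads were not examined.

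Most transcripts of the 10 genes lay in the few plasma-cell-like cells. These cells held 78.9%, 92.3%, 86.5% and 90.0% of all Jchain UMIs in WT mice 1 and 2 and D3TA mice 1 and 2. For Igkc the shares were 65.5%, 81.0%, 79.3% and 85.6%, and for Ighm 54.0%, 77.1%, 68.5% and 79.3%. Ighd was an exception: B-cell-like cells held 84.2%, 78.8%, 37.1% and 87.7% of its UMIs. In D3TA mouse 1, 35.6% of the Ighd UMIs sat in plasma-cell-like cells, and a single cell held 99.5% of those. Other genes were exceptions in some mice. Most UMIs lay outside plasma-cell-like cells for Ighg1 in both WT mice and for Ighg3 in WT mouse 2 and D3TA mouse 1. The same held for Iglc1 in WT mouse 1 and D3TA mouse 1.

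Within plasma-cell-like cells, immunoglobulin genes and Jchain took 38.8%, 53.0%, 47.2% and 50.02% of all UMIs. Igkc was measured at 244460 and 315760 CPM in the WT mice and at 323560 and 250130 CPM in the D3TA mice. Jchain was at 22726 and 24717 CPM in WT and at 23816 and 27158 CPM in D3TA. The groups overlapped for both genes. The heat map of levels by class and library shows how far these cells lie above every other class.

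A plasma-cell-like cell was given an isotype when it held at least 20 heavy chain UMIs and 1 heavy chain gene gave at least 60% of them. The calls were clean in the median cell, where the leading gene gave 99.0%, 99.9%, 99.97% and 99.8% of the heavy chain UMIs in WT mice 1 and 2 and D3TA mice 1 and 2. Some cells of WT mouse 1 were less so. With 80% required, its cells with no dominant gene numbered 45 in place of 13 and its Ighg2b cells 69 in place of 89. In WT mouse 2 and D3TA mice 1 and 2, cells with no dominant gene then numbered 7, 1 and 7. IgM was the main isotype in all 4 spleens. It was called in 386 of 571 cells of WT mouse 1 (67.6%, 95% exact Clopper-Pearson interval 63.6 to 71.4), 151 of 193 of WT mouse 2 (78.2%, 71.7 to 83.8), 159 of 180 of D3TA mouse 1 (88.3%, 82.7 to 92.6) and 134 of 222 of D3TA mouse 2 (60.4%, 53.6 to 66.8). These intervals cover counting error only, and the highest and the lowest share were both from D3TA mice.

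The switched remainder differed from mouse to mouse. In WT mouse 1, Ighg2b led with 89 cells (15.6%, 12.7 to 18.8), ahead of Ighg3 with 30, Ighg2c with 23, Igha with 22 and Ighg1 with 8. With a stricter cell filter (at least 1000 UMIs and 500 genes, at most 5% mitochondrial UMIs), the 386 called cells of this mouse held 56 Ighg2b, 22 Ighg2c, 9 Ighg3, 8 Igha and 3 Ighg1 cells, with Ighg3 at 2.33% in place of 5.25% and Igha at 2.07% in place of 3.85%. In WT mouse 2, Ighg2c led with 27 cells (14.0%, 9.43 to 19.7), followed by Ighg2b with 9 and Igha with 5. No Ighg1 or Ighg3 cell was seen there among 193 called cells, which allows a share of up to 1.89% by the exact interval.

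D3TA mouse 1 had few switched cells: 8 Ighg2b, 7 Igha, 2 Ighg1, 1 Ighg2c and 1 Ighg3. It also held the only cell called Ighd, with 2243 Ighd UMIs. In D3TA mouse 2, Igha led with 40 cells (18.0%, 13.2 to 23.7), before 20 Ighg2b, 15 Ighg2c, 5 Ighg3 and 4 Ighg1. No cell of any mouse was called Ighe. Cells with no dominant heavy chain numbered 13, 1, 1 and 4 in WT mice 1 and 2 and D3TA mice 1 and 2.

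**Figure D1:**
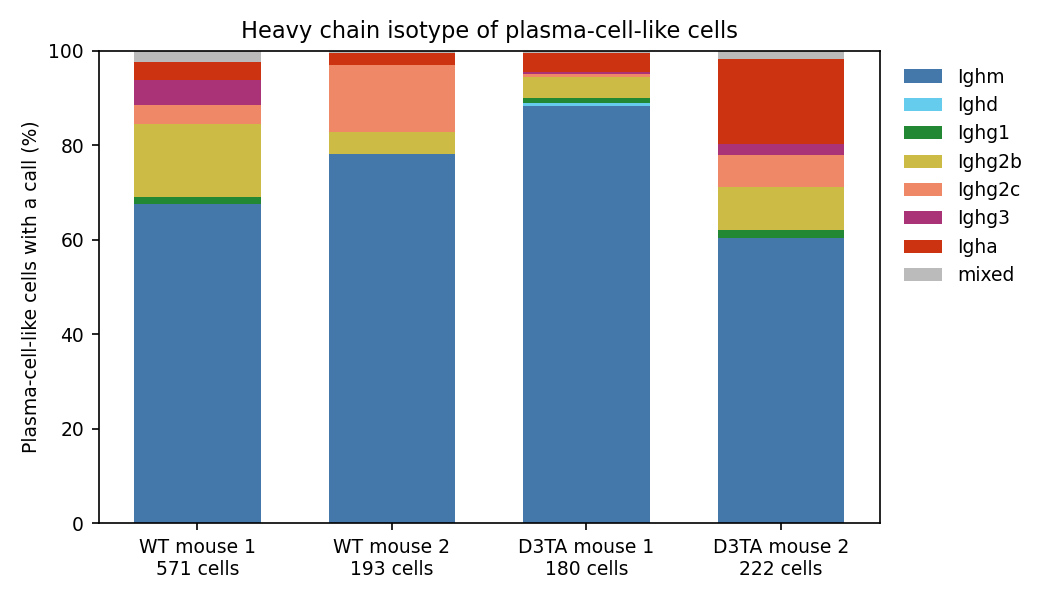
Share of plasma-cell-like cells with a call (y axis, percent) by heavy chain gene (colours), 1 bar per mouse with the number of called cells under it. IgM takes 60.4% to 88.3% of cells, and the switched gene in the lead is Ighg2b, Ighg2c, Ighg2b and Igha from left to right.

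No isotype share passed the test between genotypes. Of the 8 categories tested on cell counts with edgeR's quasi-likelihood test and Benjamini-Hochberg adjustment, 0 were called (0% of the background), and 0 had an unadjusted p under 0.05. The share of Igha among called cells was 3.22% ± 0.893 in WT and 10.95% ± 9.99 in D3TA (SD, n = 2 mice per group), a log2 ratio of 1.74 ± 1.37 (SE) with an edgeR adjusted p of 0.875. For IgM it was 72.9% ± 7.52 and 74.3% ± 19.8. The two-sided exact permutation test of 2 against 2 mice cannot go below 0.333.

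In the summed levels of plasma-cell-like cells, 0 of the 10 genes were called by edgeR, against 1 of 10334 genes tested (0.00968%). Igha was at 5139 and 4280 CPM in WT and at 6601 and 31819 CPM in D3TA. Both D3TA mice were above both WT mice, the second far more than the first, and the edgeR log2 difference was 2.08 ± 0.85 with an adjusted p of 0.9999. Ighg1 was at 1506 and 0.433 CPM in WT and at 1728 and 5954 CPM in D3TA.

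Single cells weighed on some of these levels. In D3TA mouse 1, 1 cell held 83.6% of the Ighg1 UMIs and 1 cell 99.3% of the Ighg2c UMIs. In WT mouse 1, 1 cell held 74.6% of Ighg1. For 14.8% of all genes tested both D3TA values were above both WT values, and for 14.9% below. Among the 10 genes Ighg1 and Igha lay above and none below, 2 of 10 without overlap against 29.6% of all genes.

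The 1 gene called in plasma-cell-like cells was a kappa variable gene, Igkv17-127, named here after its values were seen. It had 1 UMI in each WT library and was at 39.6 and 39.3 CPM in the D3TA libraries, in 5 and 4 cells, with edgeR log2 7.07 ± 0.41 and an adjusted p of 0.00818. Its level therefore rested on a few cells per mouse, 2 of which held at least 20 UMIs in each D3TA library. Without the cell that held most UMIs of each of the 10 genes, its adjusted p was 0.0956, and without D3TA mouse 2 it was 0.107.

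Kappa was the light chain of nearly all plasma-cell-like cells. Cells with at least 20 light chain UMIs were called lambda when lambda genes gave at least 60% of them. This was so in 3 of 596 cells of WT mouse 1 (0.503%, exact interval 0.104 to 1.46), 7 of 196 of WT mouse 2 (3.57%, 1.45 to 7.22), 0 of 183 of D3TA mouse 1 (up to 2.00%) and 9 of 222 of D3TA mouse 2 (4.05%, 1.87 to 7.56). Iglc1 was the leading gene in 1, 6 and 5 of the lambda cells of WT mouse 1, WT mouse 2 and D3TA mouse 2.

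The Iglc1 level was 4562 and 23989 CPM in the WT and 960 and 6262 CPM in the D3TA plasma-cell-like cells, and the groups overlapped. A single cell gave 69.7% of it in WT mouse 1, and without that cell the level was 1397 CPM. As a share of light chain constant UMIs, lambda took 4.27% and 8.49% in WT and 1.26% and 5.58% in D3TA (mean 6.38 ± 2.98 and 3.42 ± 3.06, SD, n = 2, two-sided exact permutation p = 0.667).

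B-cell-like cells had far more lambda. There the lambda share of light chain UMIs was 25.9% and 24.5% in WT and 24.0% and 27.6% in D3TA. In each of the 4 mice it was higher than in the plasma-cell-like cells of the same spleen. The value of D3TA mouse 1 was 14.9% with the stricter cell filter and 12.2% without cluster 11, a B-cell-like cluster that held 1511 of its 2021 cells of this class.

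Jchain differed between cells of different isotype. In IgA cells it was at 50989 CPM in WT mouse 1, 41728 in WT mouse 2, 67969 in D3TA mouse 1 and 59664 in D3TA mouse 2. In IgM cells it was at 25380, 26747, 22908 and 24798 CPM, and in IgG cells at 15976, 15252, 8059 and 10112 CPM. Every mouse showed the order IgA, IgM, IgG, and the 3 ranges did not overlap. IgA cells numbered only 5 and 7 in WT mouse 2 and D3TA mouse 1, so the tests with IgA use the 2 libraries with at least 10 such cells, WT mouse 1 and D3TA mouse 2.

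By edgeR with the mouse as a term, Jchain was higher in IgA than in IgG cells (log2 2.20 ± 0.33, adjusted p = 2.9e-05, higher in 2 of 2 libraries), where 0.686% of 6703 genes were called, 0.313% higher. Against IgM cells the IgA difference did not pass (1.18 ± 0.48, adjusted p = 0.736). Between IgG and IgM cells the log2 difference was -0.92 ± 0.21, lower in 4 of 4 libraries, with an adjusted p of 0.0749, where 1.15% of 7447 genes were called, 0.564% higher and 0.591% lower. It passed with DESeq2 (adjusted p = 1.4e-05) and with isotypes called at 80% (0.0484).

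**Figure D2:**
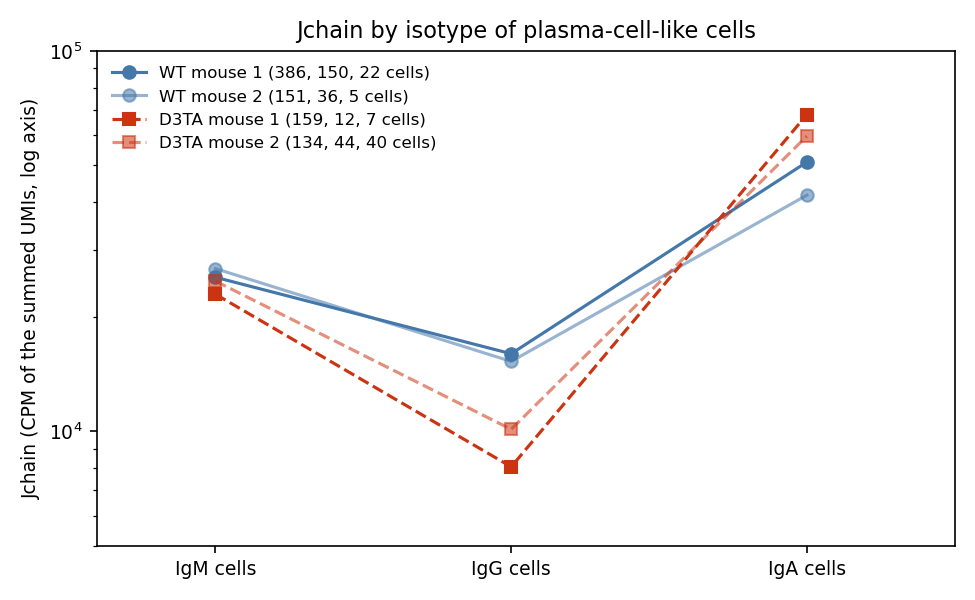
Jchain level (y axis, CPM of the summed UMIs, log axis) in IgM, IgG and IgA plasma-cell-like cells, 1 line per mouse, with the number of cells of each isotype in the legend. All 4 lines fall from IgM to IgG and rise to IgA, with IgA cells between 41728 and 67969 CPM.

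Of the light chain genes, Igkc was at 237510 and 263190 CPM in IgA cells of WT mouse 1 and D3TA mouse 2, and at 242890 and 228840 CPM in their IgM cells, with a log2 difference of 0.13 ± 0.60 and an edgeR adjusted p of 0.999. Iglc1 was lower in IgA than in IgM cells (1240 and 808 against 6883 and 9912 CPM, log2 -3.02 ± 0.44, adjusted p = 0.00111). The IgM levels rested on few cells. In WT mouse 1, 1 IgM cell held 69.7% of the Iglc1 UMIs of all plasma-cell-like cells, and in D3TA mouse 2, 1 IgM cell held 33.3%. The contrast was not run without these cells. Cells with more lambda than kappa UMIs were few: IgM cells held 3 in WT mouse 1 and 8 in D3TA mouse 2, and IgA cells 0 and 1. In the IgA cells of D3TA mouse 2, Iglc2 was at 15936 CPM. In WT mouse 2 the IgG cells held 5 such cells and 98600 CPM of Iglc1, against 985, 832 and 1309 CPM in D3TA mice 1 and 2 and WT mouse 1.

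Other genes also separated the isotypes. Of 7791 genes, 49 (0.629%) were called between IgA and IgM cells, 19 higher and 30 lower in IgA, counting the heavy chain genes that defined the cells. Ccr10, the receptor for the chemokine CCL28 through which IgA-secreting cells reach mucosal tissue, was at 60.3 and 74.0 CPM in IgA cells against 4.28 and 1.96 in IgM cells of WT mouse 1 and D3TA mouse 2 (log2 4.63 ± 0.62, adjusted p = 0.000543). Runx2, a Runt-family transcription factor, was at 155 and 241 CPM against 17.1 and 18.3 (3.54 ± 0.37, adjusted p = 4.35e-05). Itgb7, the beta 7 integrin chain of gut-homing lymphocytes, was at 129 and 76.2 CPM against 32.4 and 19.0 (2.04 ± 0.39, adjusted p = 0.0188). Glipr1, Cdc14b and Pycard, the adaptor of inflammasomes, were also higher in both libraries. Over both libraries, Ccr10 had 72 UMIs in IgA and 13 in IgM cells, Runx2 230 and 84, and Itgb7 82 and 111. The UMI totals were 995053 in IgA and 4691091 in IgM cells. Counts in WT mouse 1 were low, as its 22 IgA cells had a median of 1016 UMIs, against 22910 in the 40 of D3TA mouse 2.

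Genes lower in IgA than IgM cells included Spon1, an extracellular matrix protein, with 0 UMIs in IgA cells and 623 in IgM cells, at least 44.0-fold lower against a floor of 3 counts over both libraries. Ly6k (1 against 530 UMIs), Cox6a2, a subunit of cytochrome c oxidase known from muscle (1 against 304 UMIs), Apoe, the lipid carrier apolipoprotein E (8 against 1599 UMIs), Chst1, a sulfotransferase, and Fcer1g, the common gamma chain of Fc receptors, were lower in both libraries as well. Spon1, Ly6k, Chst1 and Apoe were again lower when IgA was compared with IgG cells, and Runx2 and Ccr10 again higher. For Apoe this rested on WT mouse 1, with 599 CPM in IgG and 17.2 in IgA cells. In D3TA mouse 2 Apoe was at 11.8 CPM in IgG and 6.83 in IgA cells. Ly6k was at 16.5 CPM in IgG and 0 in IgA cells of WT mouse 1, and at 165 and 1.14 CPM in D3TA mouse 2. The contrasts share the IgA cells. Also higher in IgA than IgG cells were Tnfrsf17, which encodes the survival receptor BCMA (207 and 164 against 13.4 and 58.0 CPM, log2 2.51 ± 0.46, adjusted p = 0.000999), Nrg2, Samsn1 and St6galnac3.

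Between IgG and IgM cells, 86 of 7447 genes were called over the 4 libraries. Slpi, a secreted protease inhibitor, was higher in IgG cells of every mouse (2373, 29045, 2805 and 10797 CPM against 900, 2028, 855 and 1158 in WT mice 1 and 2 and D3TA mice 1 and 2, log2 2.70 ± 0.41, adjusted p = 0.0126). Bcl2l1, which encodes the survival protein BCL-XL, was at 33.2 to 61.6 CPM in IgG and 3.93 to 24.7 CPM in IgM cells (2.47 ± 0.29, adjusted p = 0.00365). Vpreb3, Ly6c2, Reln and Gadd45b were higher too. Lower in IgG cells were Txndc5, a protein disulfide isomerase of the endoplasmic reticulum (386 to 651 against 1149 to 1919 CPM, -1.42 ± 0.16, adjusted p = 0.00349), Stt3b, a catalytic subunit of the oligosaccharyltransferase (-1.54 ± 0.20), Rims2, Hdac9, Sesn1 and Ptpn6, the phosphatase SHP-1. Without WT mouse 2 the count of called genes was 38 and without D3TA mouse 2 it was 29. Slpi and Txndc5 are among the genes that define the plasma-cell-like cluster, but the isotypes were not used to form it.

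B-cell-like cells carried IgM and IgD together, except in D3TA mouse 1. Ighm was at 2603 and 2973 CPM in WT and at 4014 and 3278 CPM in D3TA. Both D3TA mice were above both WT mice, but edgeR gave log2 0.44 ± 0.30 and an adjusted p of 0.786. Ighd was at 782 and 801 CPM in WT, 800 CPM in D3TA mouse 2 and 77.6 CPM in D3TA mouse 1. As a share of Ighm and Ighd UMIs, Ighd took 23.1% and 21.2% in WT and 1.90% and 19.6% in D3TA (mean 22.2 ± 1.34 and 10.8 ± 12.5, SD, n = 2, two-sided exact permutation p = 0.333, the smallest this design allows).

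Most B-cell-like cells of D3TA mouse 1 lay in a cluster low in Ighd. Cluster 11, led by Mcc, Sox5 and Robo1, held 1511 of its 2021 B-cell-like cells and 1, 4 and 12 of those of WT mice 1 and 2 and D3TA mouse 2. Different clusters thus held most of this class in different mice: cluster 11 in D3TA mouse 1, cluster 0 in WT mouse 2 and D3TA mouse 2, and cluster 1 was the largest in WT mouse 1. In cluster 11 of D3TA mouse 1, Ighm was at 3738 and Ighd at 40.8 CPM. In cluster 0, led by Fcer2a and Bach2, the 192 cells of the same mouse had 753 CPM of Ighd, against 1127 and 1242 in the WT mice and 1274 in D3TA mouse 2.

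Without cluster 11, Ighd took 3.62% of Ighm and Ighd UMIs in D3TA mouse 1, against 23.1%, 21.2% and 19.8% in WT mice 1 and 2 and D3TA mouse 2, so the low share was not limited to that cluster. The cycling B-cell-like cells of cluster 20, led by Mki67 and Top2a, were low in Ighd in every mouse (125, 93.5, 33.7 and 109 CPM in WT mice 1 and 2 and D3TA mice 1 and 2) and high in Jchain (657, 1096, 762 and 747 CPM). This cluster held 230 cells of D3TA mouse 1, more than the 192 of its cluster 0. It held 11.4% of the class there, against 2.91%, 2.75% and 2.76% in WT mice 1 and 2 and D3TA mouse 2. How far this mix set the 3.62% was not tested.

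**Figure D3:**
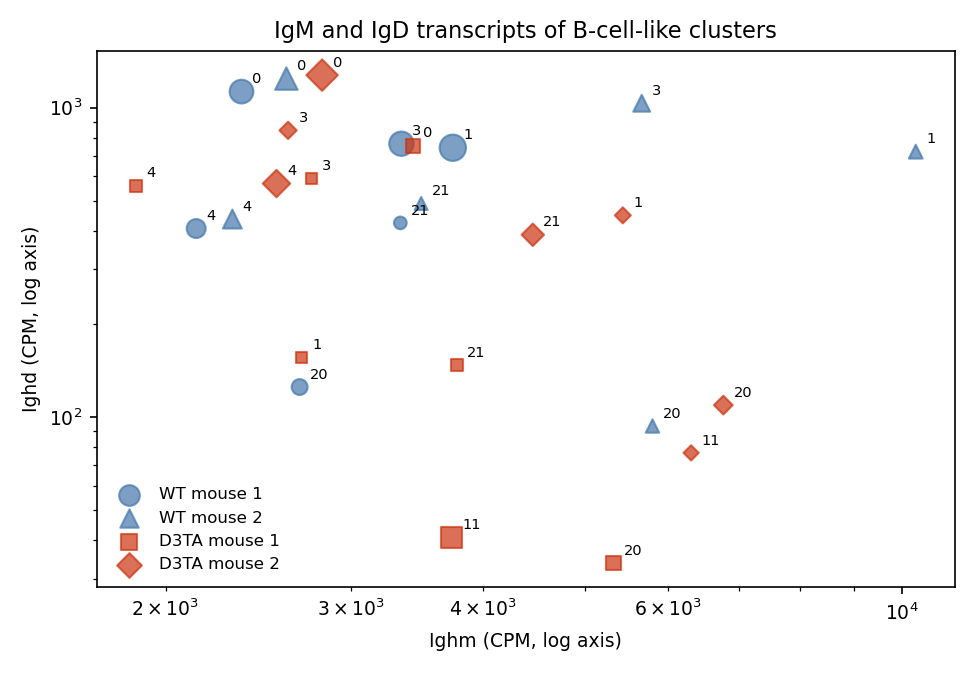
Ighd level (y axis) against Ighm level (x axis), both in CPM on log axes, for B-cell-like clusters with at least 10 cells in a library; numbers are clusters, blue marks WT and red D3TA mice, and larger symbols hold more cells. Clusters 0, 3 and 4 lie at 407 to 1274 CPM of Ighd, while clusters 11 and 20 lie at or below 125 CPM.

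Switched transcripts were sparse in B-cell-like cells. Their share of heavy chain UMIs was 10.6% and 11.6% in WT and 6.54% and 14.1% in D3TA (mean 11.1 ± 0.686 and 10.3 ± 5.35, SD, n = 2, two-sided exact permutation p = 1). The sign of this difference turned under several settings, among them leaving out D3TA mouse 1. Much of it came from single cells: 1 cell held 82.9% of the Igha UMIs of D3TA mouse 1, 1 cell 71.8% of the Ighg3 and 1 cell 60.8% of the Ighg2b UMIs of WT mouse 2. Without the cells that held most UMIs of each of the 10 genes, the switched share was 8.85%, 6.25%, 3.24% and 10.0%. With all cells kept, the switched share of T-cell-like cells was 18.5% and 11.4% in WT and 10.5% and 28.8% in D3TA. In neutrophil-like cells it was 20.1% and 17.8% in WT and 22.5% and 33.6% in D3TA. The B-cell-like share was below both in every mouse but WT mouse 2, where it was near that of T-cell-like cells. The part of background in the B-cell-like share was not tested.

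In B-cell-like cells 0 of the 10 genes were called by edgeR, and 0 of all 14926 genes were (0%), with 988 at an unadjusted p under 0.05 and 238 called by DESeq2. Igha was at 69.7 and 18.3 CPM in WT and 172 and 204 CPM in D3TA, with no overlap (log2 2.14 ± 0.67, edgeR adjusted p = 0.712). Without its highest cell, D3TA mouse 1 was at 29.5 CPM, between the WT mice. DESeq2 called it (adjusted p = 0.0281). Groups did not overlap for 3 of the 10 genes, against 39.8% of genes tested, with 20.5% above and 19.3% below in D3TA. Iglc1 lay below, at 496 and 509 CPM in WT and 382 and 204 CPM in D3TA (-0.71 ± 0.41, adjusted p = 0.748).

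Immunoglobulin transcripts were found in classes named after cells that do not make antibody. In T-cell-like cells, Igkc was at 2015 and 1005 CPM in WT and at 1079 and 786 CPM in D3TA, and Ighm at 1005, 810, 620 and 763 CPM in WT mice 1 and 2 and D3TA mice 1 and 2. After each cell was thinned to 1000 UMIs, 65.4%, 51.7%, 42.7% and 52.5% of T-cell-like cells had an Ighm UMI, against 88.4%, 89.8%, 93.3% and 90.8% of B-cell-like cells. Before thinning, at median depths of 1497, 8012, 6196.5 and 7614 UMIs, 86.4%, 97.2%, 92.6% and 98.8% of T-cell-like cells had one. Thinning left out 1410, 5, 22 and 12 of these cells. In WT mouse 1, cluster 2 held 3924 of the 5075 T-cell-like cells. Over all libraries, its marker score was 1.17 for T cells and 0.726 for B cells, at a median of 1210 UMIs. With coarser clustering, the T-cell-like class of WT mouse 1 held 2501 cells, and its B-cell-like class rose from 12762 to 15524. How far B-cell signal set the T-cell-like values of this mouse was not tested.

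For Igha, the share of B-cell-like cells with a UMI was near that of T-cell-like cells in 3 mice and above it in WT mouse 2. With thinning, 6.48%, 3.46%, 2.81% and 15.15% of them had an Igha UMI in WT mice 1 and 2 and D3TA mice 1 and 2, against 5.43%, 0.885%, 2.87% and 15.6% of T-cell-like cells, at median depths of 1328, 7258, 13645 and 7439.5 UMIs per B-cell-like cell. Ighd set the classes apart where it was present: 51.2%, 56.2%, 8.96% and 54.96% of B-cell-like against 24.1%, 4.79%, 0.882% and 3.12% of T-cell-like cells.

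For some genes the switched mix of this background lay near that of the plasma-cell-like cells of the same mouse. In T-cell-like cells of D3TA mouse 2, Igha gave 47.9% of switched heavy chain UMIs, and in its plasma-cell-like cells 45.002%. In WT mouse 2, Ighg2c gave 46.5% in T-cell-like and 52.0% in plasma-cell-like cells, and Ighg1 0.314% and 0.00148%. In its neutrophil-like, monocyte-like, macrophage-like, dendritic-cell-like and NK-cell-like cells Ighg1 had 0 UMIs, where the 3-count floor was 1.35 to 5.20 CPM. D3TA mouse 1 had little Ighg2c in both classes, 2.45% and 5.82%.

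Some isotypes were out of step with the plasma-cell-like cells. In WT mouse 1, Ighg1 gave 37.4% of the switched UMIs of T-cell-like cells and 3.81% of those of plasma-cell-like cells. B-cell-like cells held 45.1% of that library's Ighg1 UMIs, with 1209 CPM in the cycling cluster 20. Most T-cell-like cells of this mouse lay in cluster 2, whose second marker score was for B cells. Its part in the 37.4% was not tested. In D3TA mouse 1, Ighg3 gave 13.6% in T-cell-like and 0.286% in plasma-cell-like cells. There, 53.3% of the library's Ighg3 UMIs lay in unnamed clusters, most of all cluster 8. This cluster, led by Otx2os1, Dnm3 and Adgre1, had 884 CPM of Ighg3 over 325 cells of this mouse. By marker score it was closest to B cells (1.13, against 0.083 for dendritic cells), but its leading genes pointed to another class. The B-cell-like values leave it out, with 116, 1192, 325 and 285 cells in WT mice 1 and 2 and D3TA mice 1 and 2.

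**Figure D4:**
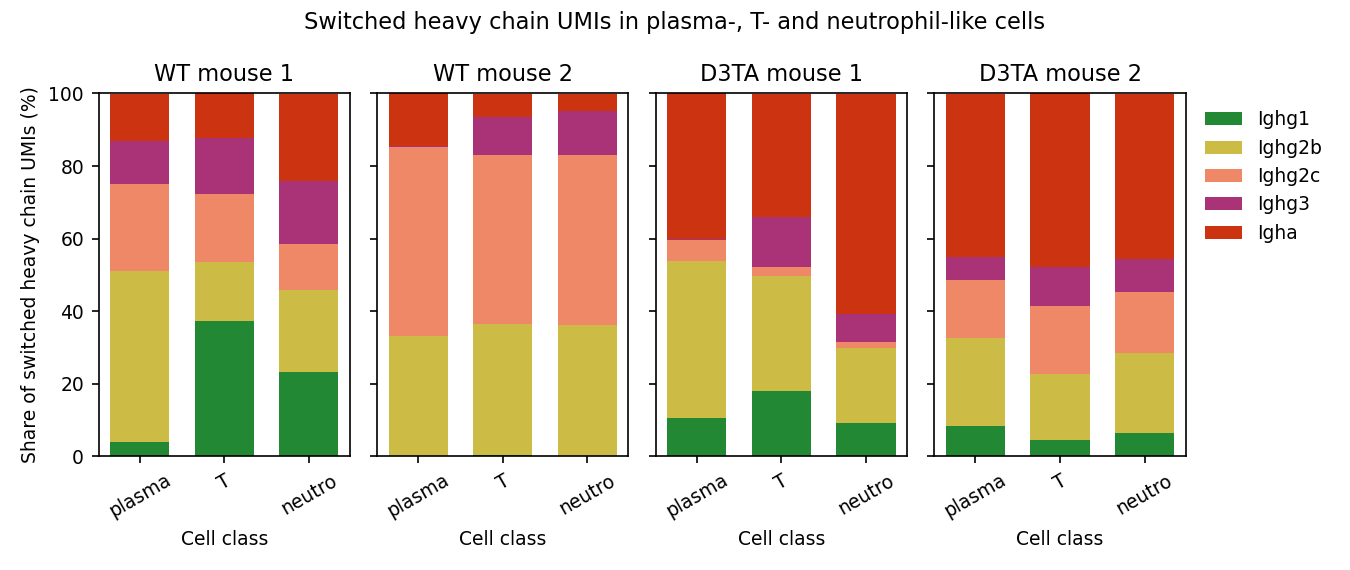
Share of switched heavy chain UMIs (y axis, percent) by gene (colours) in plasma-cell-like, T-cell-like and neutrophil-like cells (bars), 1 panel per mouse. Igha takes 45.002% to 47.9% in all 3 bars of D3TA mouse 2, while Ighg1 in WT mouse 1 takes 3.81% in plasma-cell-like and 37.4% in T-cell-like cells.

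In T-cell-like cells 0 of the 10 genes were called by edgeR and 0 of 14130 in all (0%), with 904 at an unadjusted p under 0.05 and 185 called by DESeq2. Iglc1 lay lower in D3TA, at 110 and 52.5 CPM in WT and 13.2 and 17.0 CPM in D3TA (log2 -2.45 ± 0.43, adjusted p = 0.655), as did Ighd (192 and 62.8 against 10.1 and 34.8 CPM, -2.54 ± 0.81, adjusted p = 0.721) and Ighm (-0.40 ± 0.24, adjusted p = 0.905). These 3 of 10 did not overlap between groups, as did not 35.1% of genes tested, with 17.2% below in D3TA. DESeq2 called Iglc1 and Ighd. The clusters that led this class differed: cluster 2 in WT mouse 1, 6 in WT mouse 2, 7 in D3TA mouse 1 and 9 in D3TA mouse 2. The part that the B-cell signal of cluster 2 had in these differences was not tested.

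Neutrophil-like cells gave 2 of the 3 calls among the 10 genes, both higher in D3TA, in a class where 18.8% of 12828 genes were called, 8.75% higher. They numbered 203 and 137 in the WT and 4753 and 2983 in the D3TA mice. Igha was at 38.0 and 6.35 CPM in WT and 93.2 and 276 CPM in D3TA (log2 3.16 ± 0.57, edgeR adjusted p = 0.0033). Of the Igha UMIs of D3TA mouse 1, 68.9% came from 1 cell, and without that cell its level was 29.0 CPM, within the WT values. Jchain was at 85.4 and 91.0 CPM in WT and at 114 and 203 CPM in D3TA (0.93 ± 0.26, adjusted p = 0.0259). The edgeR call of Igha held without the top cells (adjusted p = 0.0356) and was lost with DESeq2 (0.0589).

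The Jchain call rested on cluster 10, a neutrophil-like cluster whose median cell had 1828 UMIs and in which immunoglobulin genes gave 2.65% of UMIs. Cluster 10 held 906 and 761 cells of the D3TA mice and 8 and 0 of the WT mice, with Jchain at 881 and 2194 CPM and Ighm at 4833 and 10968 CPM. Without it, Jchain had a log2 difference of 0.21 ± 0.23 (adjusted p = 0.558) and Igha of 2.49 ± 0.47 (adjusted p = 0.00315). Ighm and Igkc, not called at 0.64 ± 0.31 and 0.58 ± 0.28, turned to -0.07 and -0.25. Clusters 12 in WT and 5 in D3TA held the largest part of this class. The part that RNA from other cells had in these levels was not tested. Iglc1 was lower in D3TA (39.1 and 61.4 against 16.2 and 35.9 CPM, -0.89 ± 0.36, adjusted p = 0.107), and 5 of the 10 genes did not overlap between groups, against 64.3% of all genes (37.3% above, 27% below).

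The third call was Iglc1 in monocyte- and macrophage-like cells, where 2.25% of 11352 genes were called, 2.11% higher and 0.141% lower. On the scale of the fit it was at 87.4 and 67.8 CPM in WT and at 28.1 and 27.6 CPM in D3TA (log2 -1.48 ± 0.23, adjusted p = 0.0346). Without WT mouse 1 the adjusted p was 0.218 and without WT mouse 2 it was 0.0938. Ighd was also lower in both D3TA mice (-2.03 ± 0.81, adjusted p = 0.27), and groups did not overlap for 49.4% of all genes. Single cells weighed here too: in monocyte-like cells, 1 cell held 84.0% of the Jchain UMIs of D3TA mouse 1 and 1 cell 80.6% of the Igha UMIs of D3TA mouse 2.

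Over the whole spleen, 6.15% of 18340 genes were called, 5.76% higher and 0.387% lower, and 0 of the 10. Ighd was at 542 and 501 CPM in WT and 50.8 and 309 CPM in D3TA (log2 -1.50 ± 0.76, adjusted p = 0.316), Iglc1 at 512 and 1878 against 163 and 420 CPM (-1.98 ± 0.74, adjusted p = 0.203) and Igha at 239 and 282 against 303 and 1786 CPM (2.04 ± 0.77, adjusted p = 0.211). These 3 showed no overlap between groups, and neither did 57.7% of all genes. The other 7 overlapped. In such sums alone, fewer cells of a type and less RNA per cell cannot be told apart. B-cell-like cells were 12762 of 22337 and 4219 of 7727 cells in WT. They were 2021 of 11778 and 3920 of 10554 cells in D3TA mice 1 and 2. Within B-cell-like cells, the Ighd level given above was near WT in D3TA mouse 2 and low in D3TA mouse 1. The part of cell numbers in the whole-spleen levels was not tested. The median log2 difference of the 10 genes was -0.21, against -0.004 over all genes.

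Of 20 genes listed for class switching, 3 were called higher in D3TA over the whole spleen, where 5.76% of all genes were. Exo1, an exonuclease of mismatch repair, was higher (4.03 and 4.00 against 10.5 and 10.0 CPM, 1.35 ± 0.20, adjusted p = 0.0273), as were the proliferation genes Top2a (2.01 ± 0.24) and Mki67 (1.66 ± 0.30). In B-cell-like cells 0 of these 20 were called, where 0% of all genes were, and in plasma-cell-like cells 0 of the 18 tested, where 0.00968% of all genes were. In neutrophil-like cells 3 of 20 were higher and 5 lower, where 8.75% and 10% of all genes were.

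Of 15 receptors for immunoglobulin or of that family, 3 were higher and 1 lower over the whole spleen, against 5.76% and 0.387% of all genes. Fcgr3, a low-affinity IgG receptor of myeloid cells, rose from 9.87 and 6.14 to 76.3 and 34.6 CPM (2.79 ± 0.46, adjusted p = 0.0347). Pirb (1.76 ± 0.26) and Lilrb4a (2.39 ± 0.24), inhibitory receptors of myeloid cells, were also higher. Fcmr, the IgM receptor of B cells, was lower (287 and 286 against 107 and 146 CPM, -1.18 ± 0.22, adjusted p = 0.0478). Neutrophil-like cells were 203 of 22337 and 137 of 7727 cells in WT. They were 4753 of 11778 and 2983 of 10554 cells in D3TA. The share of B-cell-like cells, from the counts above, was lower in both D3TA mice than in both WT mice. The part of either share in these levels was not tested.

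Of 39 genes of antibody secretion found among the measured genes, 0 were called over the whole spleen, 0 of 38 tested in plasma-cell-like and 0 of 39 in B-cell-like cells. In neutrophil-like cells 6 of 37 were higher and 2 lower, against 8.75% and 10% of all genes, among them Ell2, an elongation factor that promotes the secreted form of heavy chain transcripts (log2 -1.47 ± 0.25, edgeR adjusted p = 0.00212). Their median log2 difference in plasma-cell-like cells was 0.25, against 0.008 over all genes there. Both D3TA mice were above both WT mice for 10 of the 38 and below for 1, against 14.8% and 14.9% of all genes.

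Across 39 sums of a library and a class with at least 20 cells, over 11 classes, the genes whose log2(CPM + 1) was most like that of Jchain were Tnfrsf17 (Pearson r = 0.923), Chst1 (0.917), Cacna1h (0.908), Sdc1, which encodes the plasma cell surface proteoglycan CD138 (0.901), and Prlr (0.89). For Ighd they were Scd1 (0.898), Chst3 (0.881), Ralgps2 (0.872), Ebf1, a transcription factor of B cells (0.862), and Pxdc1 (0.839). For Igha the same 5 genes as for Jchain led, from Chst1 (0.779) to Sdc1 (0.745). The sums share 4 libraries, so these values only describe likeness.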

How the data were processed

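The deposited matrices held UMI counts per gene and cell barcode for 4 spleens. Per the file headers, the authors ran Cell Ranger 7.0.1, on the mm10 genome (per the submitters' processing notes). Which annotation they used, and whether intronic reads counted, is not stated there. Cells with at least 500 UMIs, 250 genes and at most 10% mitochondrial UMIs were kept, and doublets marked by Scrublet were removed. Because its automatic threshold marked 0 cells of WT mouse 1, that library took the average of the thresholds set in the other 3, once this had been seen. Counts were scaled to 10000 per cell without immunoglobulin genes, reduced to 2000 variable genes and 30 components, and clustered (scanpy 1.11.5, Leiden resolution 1, 15 neighbours). Sums of UMIs for each library and class entered edgeR 4.0.16 over all genes: filterByExpr, TMM and the quasi-likelihood test. P-values were two-sided, were adjusted by Benjamini-Hochberg over all genes tested, and counted as calls under 0.05. DESeq2 1.42.0 was an alternative. Isotype contrasts used libraries with at least 10 cells of both isotypes and the library as a term. P-values measure the spread between these mice. Fold changes use TMM-scaled values, and levels in CPM are not TMM-scaled unless said.

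The members, gene lists and markers were chosen with earlier results of these data known. Named genes were the 10 members in every fit, up to 6 called list genes per fit by smallest p, per isotype contrast the 6 called genes of largest fold in each direction with the same sign in every library and a mean of at least 50 CPM, and the 5 most like Jchain, Ighd and Igha. Igkv17-127, Mki67 and Fcmr over the whole spleen, Iglc2, Iglc3 and the clusters singled out were chosen after their values were seen. On simulated counts for the plasma-cell-like comparison (10334 genes), 69% of 4-fold and 6% of 2-fold changes were recovered with 3.85% false calls. Where the spread was drawn gene by gene, 52% of 4-fold and 2% of 2-fold changes were recovered with 16.9% false calls. The main fits did not pair mice by replicate number. The correlation of same-numbered deviations ran from -0.192 in T-cell-like to 0.0716 in plasma-cell-like cells. With 2 mice per group, it cannot show whether same-numbered mice shared handling or age. A result for 1 list gene is not reported here. The alternatives, in the closing section, were other normalizations, no low-count filter, library sizes without immunoglobulin genes, left-out mice, a replicate block, a stricter cell filter (1000 UMIs, 500 genes, 5% mitochondrial UMIs), doublets kept, Leiden resolutions 0.5 and 2 and isotype calls at 80%. Added after seeing the data were fits without cluster 10 or 11, without the top cell of each gene, and with crossed replicate numbers.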

Additional observations from a re-analysis of the deposited data

How the results depend on the processing

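Over 78 results for single genes, 595 of 687 alternative values kept their direction and side of the threshold, 31 newly passed it, 54 lost it and 7 turned. The turned values were Ighm in neutrophil-like cells (-0.0687 at Leiden resolution 0.5 and -0.0698 without cluster 10), Igkc there (-0.25 and -0.25), Iglc1 in IgG against IgM cells (0.34 without WT mouse 1 and 0.58 without D3TA mouse 2, in a leave-one-out range of -1.98 to 0.58) and Iglc1 in IgA against IgG cells (-0.00085 with isotypes called at 80%). The difference in switched share of B-cell-like cells turned to 5.29 percentage points with the stricter cell filter, 1.29 at Leiden resolution 0.5, 0.948 at resolution 2 and 2.71 without cluster 11, and ranged from -4.53 to 3.04 with 1 mouse left out. The cause was not tested.

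Counts of called genes moved further. DESeq2 called 2465 genes over the whole spleen, 39 in plasma-cell-like, 238 in B-cell-like, 185 in T-cell-like and 520 in monocyte- and macrophage-like cells, 16 between IgA and IgM and 17 between IgA and IgG cells. With no filter on low counts, edgeR called 337 genes in plasma-cell-like, 18 in B-cell-like, 355 in T-cell-like and 1408 in monocyte- and macrophage-like cells. Leiden resolution 0.5 gave 7 in T-cell-like and resolution 2 gave 1552 in monocyte- and macrophage-like cells. Isotypes called at 80% gave 110 between IgA and IgM cells, and leaving out the top cell of each gene gave 0 in plasma-cell-like cells.

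With 1 mouse left out, where a lone mouse is assumed to vary like the other group, the counts ranged from 291 to 5786 (whole spleen), 0 to 289 (plasma-cell-like), 0 to 7185 (B-cell-like), 0 to 40 (T-cell-like), 1522 to 2842 (neutrophil-like), 1 to 2598 (monocyte- and macrophage-like) and 29 to 117 (IgG against IgM). The highest whole-spleen, B-cell-like and monocyte- and macrophage-like counts came without D3TA mouse 2, and without D3TA mouse 1 the B-cell-like count was 2543. Leaving out WT mouse 2 gave the lowest whole-spleen and monocyte- and macrophage-like counts and the highest plasma-cell-like and T-cell-like counts. The IgA contrasts had 2 libraries and give no such value. With the replicate block, counts were 1239 over the whole spleen, 47 in plasma-cell-like and 0 in B-cell-like and T-cell-like cells. They were 2445 in neutrophil-like and 370 in monocyte- and macrophage-like cells. With crossed pairing, counts were 1958 over the whole spleen, 0 in plasma-cell-like, 33 in B-cell-like and 134 in T-cell-like cells. Neutrophil-like cells then gave 2275, and monocyte- and macrophage-like cells 559. The low depth of WT mouse 1 limits its isotype calls, at a median of 121 heavy chain UMIs per plasma-cell-like cell.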

Other observations

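Plasmacytoid-dendritic-cell-like cells carried a lambda constant transcript, Iglc3, at higher levels than T-cell-like cells of the same library. Iglc3 was at 649 CPM in WT mouse 1 (189 UMIs in 68 cells), 732 in WT mouse 2 (175 UMIs in 16 cells), 582 in D3TA mouse 1 (104 UMIs in 17 cells) and 409 in D3TA mouse 2 (49 UMIs in 11 cells). The largest cell gave 12.7% to 26.5% of these UMIs. T-cell-like cells of the same libraries had 159, 40.1, 16.8 and 16.0 CPM. IgM plasma-cell-like cells had more Iglc3 than the plasmacytoid-dendritic-cell-like cells, at 728, 800, 789 and 754 CPM in the same order. Iglc2, 96.2% identical to it, was at 326, 134, 95.2 and 33.4 CPM in the plasmacytoid-dendritic-cell-like cells, and Igkc at 2050, 820, 969 and 893 CPM.

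In the dendritic-cell-like cells of WT mouse 1, Ighg2b was at 737 CPM, against 29.7, 22.0 and 35.1 CPM in WT mouse 2 and D3TA mice 1 and 2. The UMIs lay in 10.4% of the 944 cells, and the largest cell gave 9.94% of them. Cluster 17, unnamed and led by hemoglobin genes, had 1152 CPM of Ighg2c in WT mouse 1 and 18.3, 0.385 and 21.9 CPM in the other mice.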
